A study of Homo sapiens with 6 samples.

Results

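β-catenin peaks were examined at 7 genes that make or release Wnt proteins: the ligand genes WNT8A, WNT3, WNT3A, WNT5A and WNT5B, and the secretion genes WLS and PORCN. A peak belonged to a gene when the authors had assigned that gene's symbol to it, in any case of letters and at any distance from the transcription start site (TSS). This gave 17 of the 3126 peaks in the 3 lists used here, 8 of 1813 in CHIR+SB, 8 of 1053 in CHIR and 1 of 260 in RPMI. Peaks were found for 5 of the 7 genes, and WNT5A and PORCN had none in any list. A search of the lists by older symbols and by RefSeq transcript accessions added no peak.

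The cells were SA121, a human embryonic stem cell line kept for 6 h in RPMI-1640 medium. Chromatin bound by β-catenin was precipitated with an antibody and sequenced (ChIP-seq). In the CHIR+SB cells the medium held CHIR99021, an inhibitor of the kinase GSK3 that marks β-catenin for degradation, and SB431542, which blocks the type I receptors through which activin, Nodal and TGFβ signal. In the CHIR cells it held CHIR99021, and in the mock-treated RPMI cells neither inhibitor. Each condition had 1 β-catenin library and 1 library made with goat IgG, and each library was made from the pooled DNA of parallel ChIPs, so no value here has a replicate. Intervals given below are exact 95% intervals for counting error. No p-value is given between conditions. Peaks do not measure expression, so the cell type given in the labels was not checked against RNA of its markers.

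Wnt proteins are lipid-modified by PORCN, an acyltransferase of the endoplasmic reticulum, and are then carried to the cell surface by the transmembrane protein WLS. Outside the cell a Wnt bound to a Frizzled receptor and its LRP co-receptor stops the degradation of β-catenin, which then acts with TCF/LEF proteins at DNA. In mouse embryos Wnt3 is needed for the primitive streak and Wnt3a for mesoderm that forms later, and Wnt8a is expressed in the early streak. WNT5A and WNT5B are known mainly for signalling that does not run through β-catenin.

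The lists had 39022 β-catenin reads within peaks in CHIR+SB, 39408 in CHIR and 6272 in RPMI. Relative to RPMI, the depth of the β-catenin library by the authors' scaling was 1.14 in CHIR+SB and 1.67 in CHIR, and that of the IgG library 1.75 and 0.976. Normalized signal means β-catenin reads multiplied by the authors' factor for the library. Peak coordinates are given as in the deposited lists, and hg19 is the human build named in the submitters' processing notes. The lowest signal in a list was 6.75 in CHIR+SB, 7.68 in CHIR and 9.61 in RPMI. A site absent from a list was not called there, and reads at such a site were not available, so absence is not a count of 0. Where reads at equal signal are given for such a list, they are point values without counting error. Exceeding the smallest peak of that list does not mean that the site would have been called there.

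In CHIR+SB, 5 of the 7 genes had a peak (WNT8A, WNT3, WNT3A, WNT5B and WLS), against 6.26% of the 20056 protein-coding genes of the reference table. In CHIR, 4 had one (WNT8A, WNT3, WNT3A and WLS), against 3.80% of protein-coding genes. In RPMI, WNT8A alone of the 7 had a peak, against 1.14% of protein-coding genes. The 7 genes were chosen with results of these data known, so these shares describe them and are no test. Within 10 kb of the TSS the genes with a peak were WNT5B and WNT8A in CHIR+SB, WNT3, WNT8A and WLS in CHIR, and none in RPMI. The share of all genes with a peak within 10 kb was not computed, and the shares above are for any distance.

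Overlapping peaks were joined into 9 sites. The site downstream of WNT8A was in all 3 lists. A further 5 sites were in CHIR+SB and CHIR: a second site downstream of WNT8A, 1 within WNT3, 1 downstream of WNT3A and 2 upstream of WLS. The site upstream of WNT3 and the site next to the WLS TSS were in CHIR, and the site within WNT5B was in CHIR+SB. Of the 8 peaks in CHIR+SB, 7 had an overlapping peak in CHIR, as had 36.6% of that whole list. Of the 8 in CHIR, 6 had one in CHIR+SB, as had 63.3% of the whole list. An RPMI peak was met by 1 peak in CHIR+SB (8.77% of that list) and by 1 in CHIR (17.0%), both of WNT8A. The RPMI peak of WNT8A met a peak in each of the other lists, as did 61.5% (CHIR+SB) and 69.6% (CHIR) of all RPMI peaks.

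**Figure D1:**
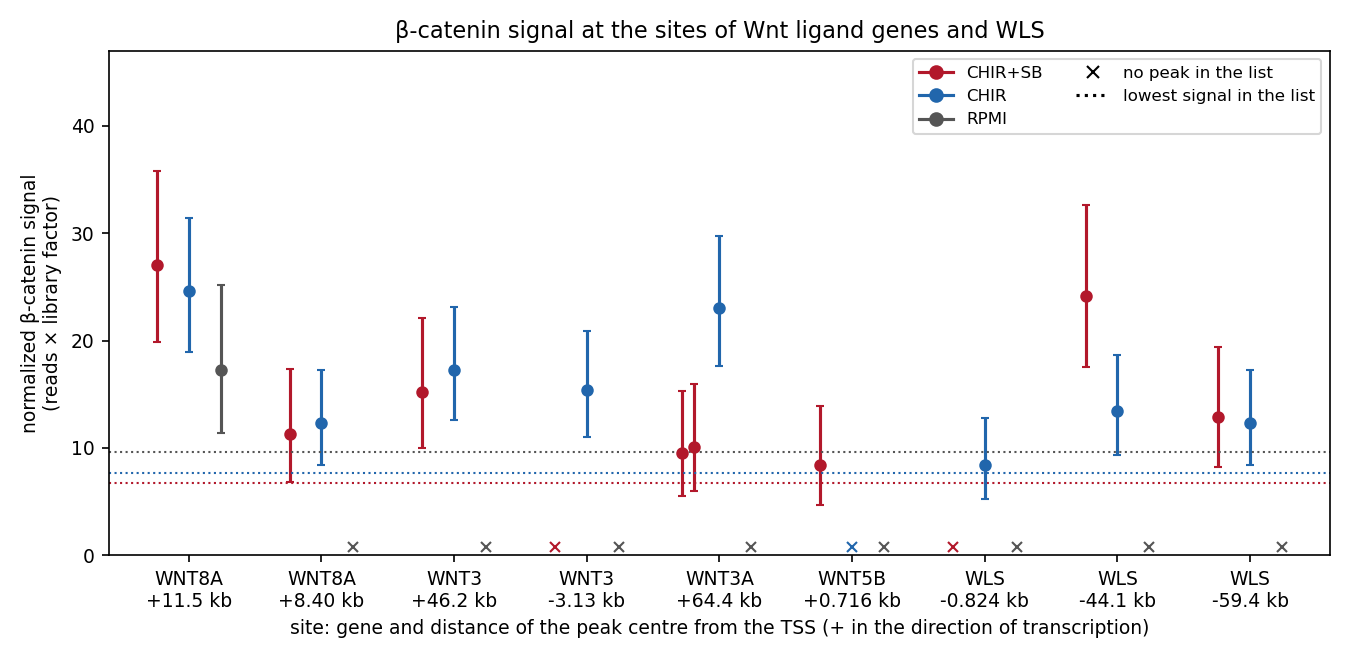
Normalized β-catenin signal (reads multiplied by the library factor) at each of the 9 sites in CHIR+SB, CHIR and RPMI, with exact 95% intervals for counting error; crosses mark lists without a peak at the site and dotted lines the lowest signal of each list. WNT8A at 11.5 kb is the site with a point in all 3 lists, at 27.0, 24.6 and 17.3.

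WNT8A encodes a ligand that, in mouse embryos, is made in the early primitive streak. Its stronger site lay 11.5 kb from the TSS and, in CHIR, 4.06 kb past the end of the gene (chromosome 5, 137430849 to 137431542 in CHIR+SB, 137430945 to 137431579 in CHIR and 137431051 to 137431518 in RPMI). The peak had 48 β-catenin and 11 IgG reads in CHIR+SB, 64 and 1 in CHIR, and 27 and 4 in RPMI. Normalized signal was 27.0 (19.9 to 35.8) in CHIR+SB, 24.6 (18.9 to 31.4) in CHIR and 17.3 (11.4 to 25.2) in RPMI. The 3 intervals overlapped. The peak ranked 61 of 1813, 85 of 1053 and 61 of 260 in the lists, so it stood above 96.3%, 91.4% and 74.2% of the peaks.

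The WNT8A signal at this site was 1.56 times as high in CHIR+SB as in RPMI (0.954 to 2.60) and 1.42 times as high in CHIR as in RPMI (0.893 to 2.32). Between CHIR+SB and CHIR the ratio was 1.10 (0.740 to 1.62). All 3 intervals include 1, and both ratios over RPMI share the 1 RPMI library. Of all peaks that overlapped one-to-one, at least 1.5-fold higher signal was found in 17.8% for CHIR+SB over RPMI, 21.3% for CHIR over RPMI and 11.7% for CHIR+SB over CHIR. At least 1.5-fold lower signal was found in 6.58%, 1.72% and 8.88%. The median ratio over those peaks was 1.09, 1.23 and 1.000. The WNT8A peak was 693 bp wide in CHIR+SB, 634 bp in CHIR and 467 bp in RPMI, and both wider peaks held the whole RPMI peak. Per kb of peak the signal was 39.0, 38.8 and 37.1, so that the ratio per width was 1.05 for either treatment over RPMI.

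Signal over IgG at the same WNT8A site was 6.23 (3.19 to 13.3) in CHIR+SB, 34.8 (6.03 to 1397) in CHIR and 6.28 (2.19 to 24.7) in RPMI. The CHIR value rests on 1 IgG read, and its interval overlaps both others. By this measure the ratio of CHIR+SB to RPMI was 0.993.

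The second WNT8A site lay 8.40 kb from the TSS and just under 1 kb past the gene's end, 3.08 kb from the first by peak centres in CHIR (chromosome 5, 137427976 to 137428325 in CHIR+SB and 137427979 to 137428393 in CHIR). It had 20 β-catenin and 5 IgG reads in CHIR+SB and 32 and 4 in CHIR. The signal was 11.3 (6.87 to 17.4) and 12.3 (8.41 to 17.3), a ratio of 0.916 (0.496 to 1.65). The RPMI list had no peak there. At the CHIR signal the RPMI library would have had 19.2 reads, above the 15 reads of the smallest RPMI peak.

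**Figure D2:**
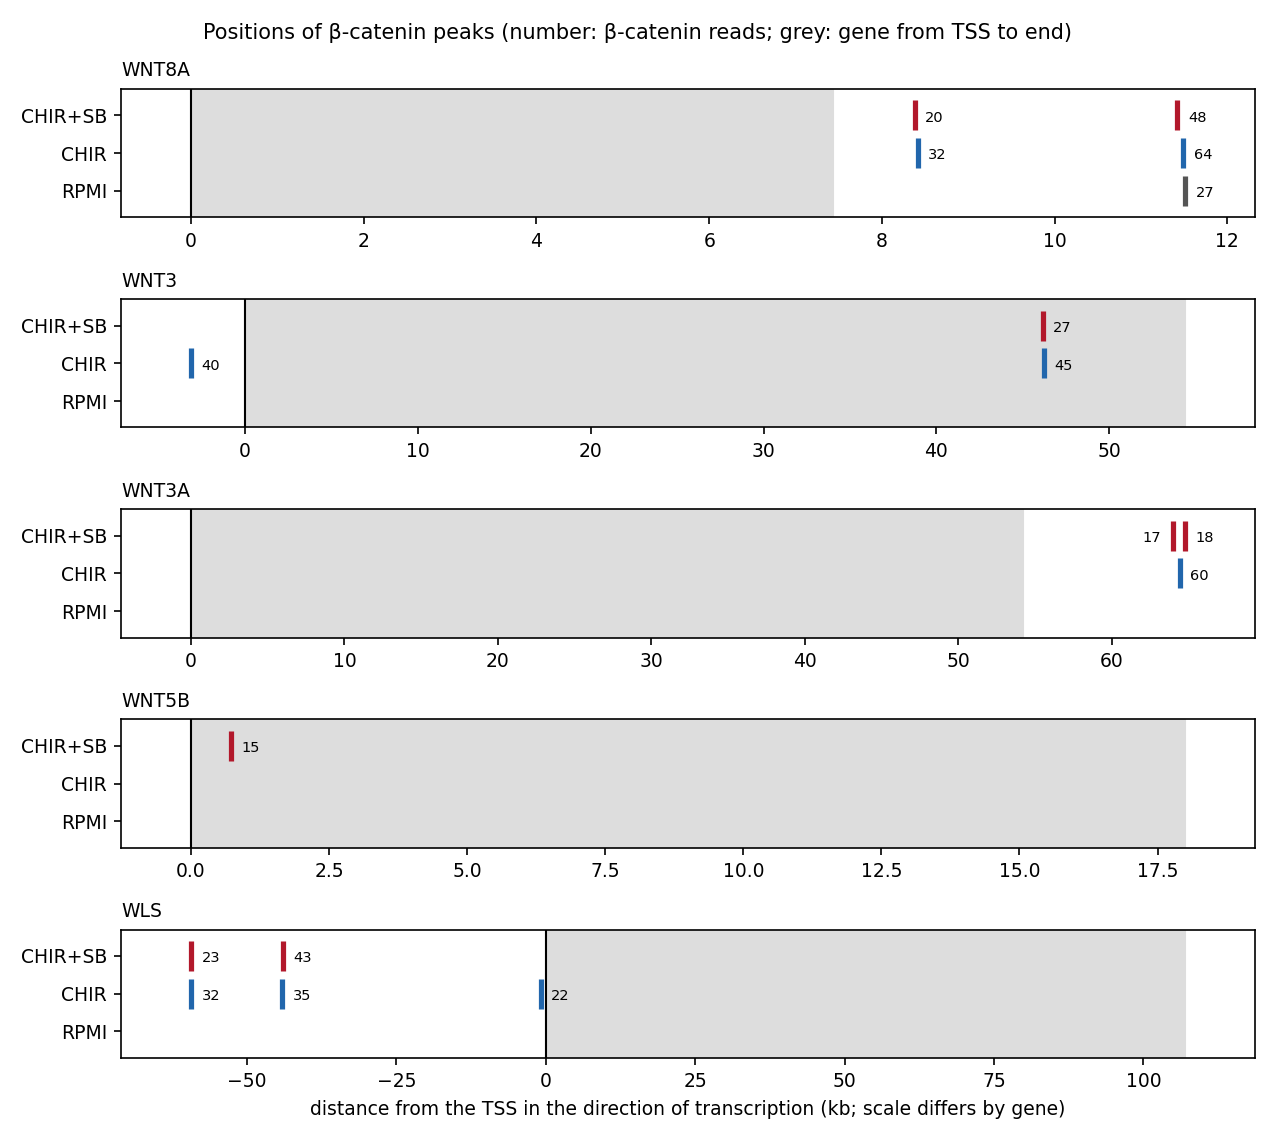
Peak centres along the 5 genes with a peak, as distance from the TSS in kb in the direction of transcription, with 1 row for each of CHIR+SB, CHIR and RPMI; grey marks the gene from TSS to end and numbers are β-catenin reads. The WNT8A and WNT3A peaks lie past the gene's end, and 2 of the 3 WLS sites lie far upstream, at 44.1 and 59.4 kb.

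WNT3 encodes the ligand whose mouse counterpart is required for streak formation. A site within the gene, 46.2 kb from the TSS of a gene of 54.4 kb, was in CHIR+SB and CHIR (chromosome 17, 44849688 to 44850184 in CHIR+SB and 44849568 to 44850097 in CHIR). It had 27 β-catenin and 12 IgG reads in CHIR+SB and 45 and 3 in CHIR. Signal was 15.2 (10.0 to 22.1) in CHIR+SB and 17.3 (12.6 to 23.1) in CHIR, a ratio of 0.879 (0.524 to 1.45). Signal over IgG was 3.21 (1.57 to 6.97) in CHIR+SB and 8.16 (2.62 to 41.1) in CHIR, and these intervals overlap as well.

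The other WNT3 site lay 3.13 kb upstream of the TSS (chromosome 17, 44898957 to 44899460) and was in the CHIR list, with 40 β-catenin and 6 IgG reads and a signal of 15.4 (11.0 to 20.9). Its interval overlaps that of the site within the gene. Neither CHIR+SB nor RPMI had a peak there. At equal signal the CHIR+SB library would have had 27.3 reads and the RPMI library 24.0, where the smallest peaks of those lists had 12 and 15. Whether the signal itself differed was not tested, since the reads at this site in the other libraries were not available.

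WNT3A, a close relative of WNT3, had its site 64.4 kb from the TSS and about 10 kb past the end of the gene. CHIR+SB had 2 peaks there (chromosome 1, 228258626 to 228258856 and 228259362 to 228259676), with 17 and 18 β-catenin reads and 4 and 6 IgG reads. CHIR had 1 peak across both (chromosome 1, 228258726 to 228259614), with 60 β-catenin and 3 IgG reads. The CHIR+SB signals were 9.56 (5.57 to 15.3) and 10.1 (6.00 to 16.0), and the CHIR signal was 23.0 (17.6 to 29.7). The CHIR peak, 888 bp wide, was wider than 99.4% of the peaks in its list and ranked 105 of 1053.

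Added together, the WNT3A peaks had a signal of 19.7 over 544 bp in CHIR+SB and 23.0 over 888 bp in CHIR. The ratio of these was 0.855 (0.547 to 1.32), and 1.39 per bp. The sum leaves out the 506 bp between the CHIR+SB peaks, so the lower rank of each WNT3A peak in CHIR+SB (875 and 777 of 1813) does not show a lower signal at the site. RPMI had no peak within 300 kb of WNT3A.

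WLS, the carrier of Wnt proteins through the secretory pathway, had 3 sites, all upstream of its TSS. The site at 44.1 kb had 43 β-catenin and 5 IgG reads in CHIR+SB (chromosome 1, 68742017 to 68742672) and 35 and 4 in CHIR (68742141 to 68742578). Signal was 24.2 (17.5 to 32.6) in CHIR+SB and 13.4 (9.36 to 18.7) in CHIR. The peak ranked 94 of 1813 in CHIR+SB and 409 of 1053 in CHIR.

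The ratio at this WLS site was 1.80 (1.13 to 2.90), higher than at 95.0% of the 642 one-to-one peaks of this comparison. It was the 1 ratio of CHIR+SB to CHIR among 5 sites of these genes that passed 1.5-fold, where 11.7% of all one-to-one peaks were at least that much higher. The peak was 655 bp wide in CHIR+SB and 437 bp in CHIR, and the wider one held the whole of the other. Per width the ratio was 1.20. Signal over IgG was 12.3 (4.88 to 39.7) in CHIR+SB and 4.76 (1.70 to 18.4) in CHIR, with overlapping intervals.

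The WLS site at 59.4 kb, 15.3 kb beyond the first by peak centres in CHIR, had 23 β-catenin and 6 IgG reads in CHIR+SB (chromosome 1, 68757430 to 68757874) and 32 and 5 in CHIR (68757442 to 68757796). Its signal was 12.9 (8.20 to 19.4) in CHIR+SB and 12.3 (8.41 to 17.3) in CHIR, a ratio of 1.05 (0.588 to 1.86). RPMI had neither far WLS site. At the CHIR signals the RPMI library would have had 21.0 and 19.2 reads at them, above its smallest peak of 15.

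Near the WLS TSS, CHIR had a small peak 0.824 kb upstream (chromosome 1, 68698989 to 68699227) with 22 β-catenin reads and 0 IgG reads. Its signal was 8.45 (5.29 to 12.8), and the exact lower limit of signal over IgG was 2.98. It stood above 12.7% of the CHIR peaks. At that signal RPMI would have had 13.2 reads, below its smallest peak, while CHIR+SB would have had 15.0 reads, above its minimum of 12.

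WNT5B had 1 peak, in CHIR+SB, inside the gene (chromosome 12, 1739068 to 1739185). The peak lay 0.716 kb past the TSS of the transcript that the authors assigned to it. It had 15 β-catenin and 4 IgG reads and a signal of 8.44 (4.72 to 13.9), above 24.2% of its list. At 117 bp it was the narrowest of the 17 peaks, with 72.1 units of signal per kb. The other 16 peaks ran from 25.9 to 41.6 per kb, while their signal ran from 8.45 to 27.0 and their width from 230 to 888 bp. At equal signal CHIR would have had 22.0 reads there, just above its smallest peak of 20, and RPMI 13.2, below its smallest.

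WNT5A, a ligand of convergent extension and outgrowth in mouse embryos, and PORCN, the enzyme that acylates Wnt proteins, had no peak. None of the 3 nearest genes on either side of them in the reference table had one either, by a search on current symbols. Peaks around WNT5A and PORCN were not searched by position. Around the members with peaks, the search on symbols found FBXL14, which lies beside WNT5B. FBXL14 encodes an F-box protein of ubiquitin ligases. Its peak lay 41.0 kb from the WNT5B TSS and had 25 β-catenin and 5 IgG reads in CHIR+SB (signal 14.1) and 28 and 1 in CHIR (signal 10.8). No peak of another gene lay within 300 kb of WNT8A, WNT3, WNT3A or WLS in any list.

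The 17 peaks lay 0.716 to 64.8 kb from the TSS: 8 were past the end of the gene, 6 upstream and 3 within it. Peaks past the gene's end made up 4 of 8 in CHIR+SB, 3 of 8 in CHIR and the single RPMI peak, where all peaks of these lists had 27.9%, 23.9% and 14.6% there. All of them were of WNT8A and WNT3A, at the same sites counted again in each list. The WNT3A site counts as 2 peaks in CHIR+SB and 1 in CHIR. Within 1 kb of the TSS lay 1 of 8 in CHIR+SB (WNT5B), 1 of 8 in CHIR (WLS) and none in RPMI, against 14.5%, 26.6% and 55.0% of all peaks. No peak of these genes reached into the 300 bp from 250 bp before to 50 bp after the TSS, where 11.3%, 20.8% and 48.8% of all peaks did.

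The RefSeq promoter windows (assembly GRCh38.p14) of all 7 genes, 11 windows in all, were searched for the TCF/LEF core letters CTTTGA on either strand. They were found in 1 window, of PORCN, and in 12.9% of all 35116 windows. The longer form CTTTGAT, which contains the core, was in no window of the 7 genes and in 2.62% of all. The 250 bases before a start are shown for WLS and WNT5B, the genes with a peak within 1 kb of the TSS, and for PORCN, which had the letters and no peak. Each of these genes has 2 windows. Both are shown for WNT5B, 1 of 2 overlapping ones for WLS, and for PORCN the one that holds the letters. Capitals mark CTTTGA. WLS is on chromosome 1, 68232547 to 68232796 (minus strand), WNT5B on chromosome 12, 1616806 to 1617055 and 1628981 to 1629230 (plus strand, for its 2 starts), and PORCN on chromosome X, 48509534 to 48509783 (plus strand).
WLS: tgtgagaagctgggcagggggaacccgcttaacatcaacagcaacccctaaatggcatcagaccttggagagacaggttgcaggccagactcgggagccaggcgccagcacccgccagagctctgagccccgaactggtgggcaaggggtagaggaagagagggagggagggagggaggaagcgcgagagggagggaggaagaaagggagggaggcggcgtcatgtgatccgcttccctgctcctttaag
WNT5B first start: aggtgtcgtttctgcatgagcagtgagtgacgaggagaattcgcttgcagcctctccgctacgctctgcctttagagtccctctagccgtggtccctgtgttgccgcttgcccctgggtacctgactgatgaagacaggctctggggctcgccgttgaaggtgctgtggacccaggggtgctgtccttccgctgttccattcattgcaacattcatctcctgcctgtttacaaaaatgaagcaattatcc
WNT5B second start: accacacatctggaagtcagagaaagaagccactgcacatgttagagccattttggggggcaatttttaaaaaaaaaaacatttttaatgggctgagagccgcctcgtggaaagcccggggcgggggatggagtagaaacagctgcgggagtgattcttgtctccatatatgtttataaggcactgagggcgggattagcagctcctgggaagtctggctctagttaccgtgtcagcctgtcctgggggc
PORCN: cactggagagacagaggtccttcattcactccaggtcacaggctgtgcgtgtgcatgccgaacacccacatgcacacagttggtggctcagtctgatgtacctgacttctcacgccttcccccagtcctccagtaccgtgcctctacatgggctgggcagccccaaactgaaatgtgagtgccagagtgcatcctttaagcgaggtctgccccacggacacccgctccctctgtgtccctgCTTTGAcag
The PORCN match begins 9 bases before the start. The peaks near WLS and WNT5B lay outside these windows, and the sequence under the peaks was not read here because no hg19 genome was used.

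Within a list the sites of these genes formed a graded series. In CHIR+SB the order by signal was WNT8A at 11.5 kb (27.0), WLS at 44.1 kb (24.2), WNT3 at 46.2 kb (15.2), WLS at 59.4 kb (12.9), WNT8A at 8.40 kb (11.3), the WNT3A peaks (10.1 and 9.56) and WNT5B (8.44). In CHIR it was WNT8A at 11.5 kb (24.6), WNT3A (23.0), the WNT3 sites at 46.2 and 3.13 kb (17.3 and 15.4), WLS at 44.1 kb (13.4), WLS at 59.4 kb and WNT8A at 8.40 kb (12.3 each) and WLS at 0.824 kb (8.45). Each site's interval overlapped that of its neighbour in the order. No ratio between neighbouring sites was computed, so the order of neighbours is not settled here. WNT8A at 11.5 kb and the lowest peak of the list did not overlap in either list. In each of CHIR+SB and CHIR, 7 of the 8 peaks stood at or above the median signal of their list, which was 9.56 and 11.9.

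**Figure D3:**
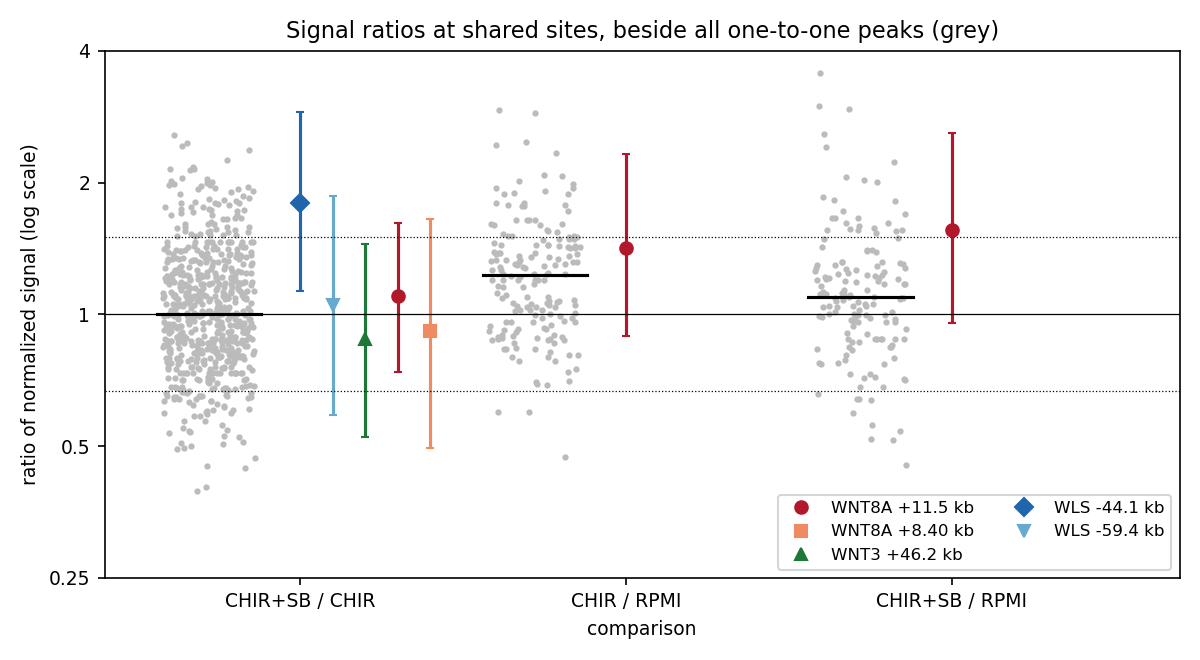
Ratio of normalized signal (log scale) at shared sites of these genes, with exact 95% intervals, beside all one-to-one peaks (grey, black bar at the median) for CHIR+SB over CHIR, CHIR over RPMI and CHIR+SB over RPMI; dotted lines mark 1.5-fold. WLS at 44.1 kb, at 1.80, is the one CHIR+SB over CHIR interval that does not reach 1.

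IgG reads within the peaks of these genes were 4 to 12 per peak in CHIR+SB, 0 to 6 in CHIR and 4 in RPMI. Summed over the 8 peaks of each list, there were 211 β-catenin and 53 IgG reads in CHIR+SB and 330 and 26 in CHIR. After the authors' scaling the IgG sums were 20.9 and 18.3. The IgG library of CHIR+SB was also the deepest of the 3.

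**Figure D4:**
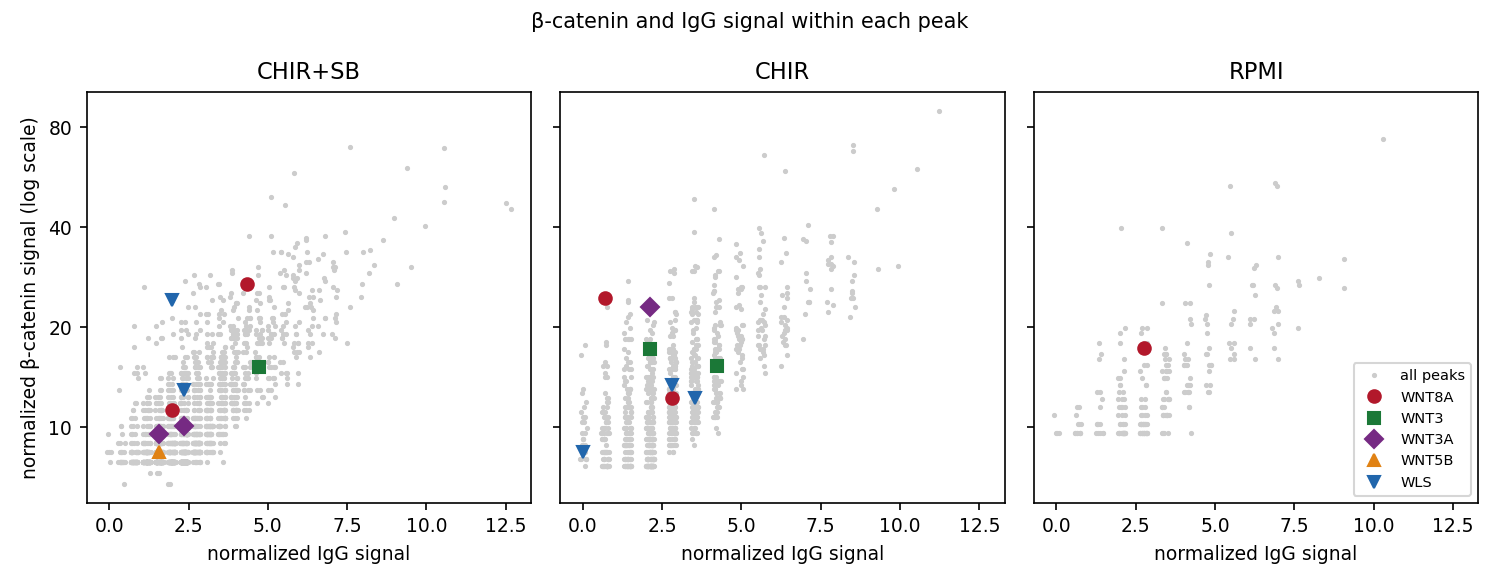
Normalized β-catenin signal (log scale) against normalized IgG signal within each peak of CHIR+SB, CHIR and RPMI, all peaks in grey and the peaks of WNT8A, WNT3, WNT3A, WNT5B and WLS in colour; grey points are spread slightly sideways. The highest WNT8A peak had IgG signals of 4.33, 0.706 and 2.75 in the 3 panels.

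At 145 places a chain of one-to-one peaks ran through all 3 lists, and 108 of them lay within 1 kb of a TSS. WNT8A at 11.5 kb was among the 37 others. Like WNT8A, 27 of the 145 (18.6%) had the highest signal in CHIR+SB, then CHIR, then RPMI, and 11 of the 37 did. The 3 peaks most like WNT8A, by Euclidean distance of log2 signal over the 3 libraries, were assigned to MIR3924, a microRNA gene 161 kb away (distance 0.14), BANP (0.21) and IREB2 (0.22). The signals in CHIR+SB, CHIR and RPMI were 25.9, 25.7 and 16.0 for MIR3924 and 27.6, 27.6 and 16.0 for BANP. For IREB2, which encodes an iron-responsive RNA-binding protein, they were 31.5, 24.6 and 17.3. The BANP and IREB2 peaks lay within 1 kb of the TSS.

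The other genes of Wnt production and reception were taken as 4 lists of 60 genes in all. Of these, 11 had a peak in CHIR+SB, 12 in CHIR and 3 in RPMI, where 6.26%, 3.80% and 1.14% of all protein-coding genes had one. These lists too were chosen with results of these data known, and their counts are no test. Among the 14 other ligand genes, WNT10A and WNT10B had peaks. WNT10A had one past its end at 28.4 kb, with 55 reads in CHIR (signal 21.1) and 23 in RPMI (signal 14.7), and none in CHIR+SB. Its ratio of CHIR to RPMI was 1.43 (0.866 to 2.44), beside 1.42 for WNT8A, and both intervals include 1. WNT10B had a peak inside the gene, 3.19 kb (CHIR+SB) and 3.33 kb (CHIR) past the TSS. It held 29 reads in CHIR+SB and 45 in CHIR (ratio 0.944, 0.571 to 1.54).

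Another list held 16 genes for release, trafficking and extracellular modulation of Wnt signalling, the R-spondin genes among them. Here TRABD2A and GPC6 had a peak in CHIR+SB, TRABD2A, NOTUM and GPC4 in CHIR, and none of the 16 in RPMI. Of all protein-coding genes, 6.26%, 3.80% and 1.14% had one. TRABD2A, a membrane protease that cuts Wnt proteins, had a peak of higher normalized signal than any of the 7 genes in CHIR+SB and CHIR. It lay inside the gene, 25.1 kb past the TSS. It had 53 β-catenin and 15 IgG reads in CHIR+SB (signal 29.8) and 77 and 6 in CHIR (signal 29.6). The ratio was 1.01 (0.697 to 1.45). The peak was 875 bp wide in CHIR+SB and 706 bp in CHIR, and its signal per width or over IgG was not compared with the 7 genes. NOTUM, an esterase that removes the lipid from Wnt proteins, had 29 reads in CHIR. The cell-surface glypican genes had 14 reads (GPC6 in CHIR+SB) and 27 reads (GPC4 in CHIR).

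Of 16 receptor genes, 6 had a peak in CHIR+SB (FZD1, FZD2, FZD7, FZD8, LRP6 and ROR1), 6 in CHIR (FZD1, FZD2, FZD7, FZD10, ROR1 and ROR2) and 2 in RPMI (FZD1 and FZD2), beside the same 6.26%, 3.80% and 1.14% of protein-coding genes. The highest receptor signals were 21.4 at FZD1 in CHIR+SB, 22.3 at FZD7 in CHIR and 10.9 at FZD2 in RPMI. FZD1 had peaks past its end in all 3 lists, 91.4 kb from the TSS in CHIR+SB and CHIR. In RPMI it had 2 peaks, the listed one at 91.2 kb, and no one-to-one ratio to RPMI was available. The FZD2 site, 16.9 kb upstream, was also in all 3 lists, with 21 β-catenin and 9 IgG reads in CHIR+SB, 51 and 9 in CHIR, and 17 and 5 in RPMI. Its signal was 11.8, 19.6 and 10.9. The ratio of CHIR to RPMI was 1.80 (1.02 to 3.32), where 21.3% of all one-to-one peaks were at least 1.5-fold higher. However, the FZD2 peak was 344 bp wide in CHIR and 136 bp in RPMI, and per bp its signal was lower in CHIR. The ratio of CHIR+SB to RPMI was 1.08 (0.545 to 2.19) and that of CHIR+SB to CHIR 0.603 (0.345 to 1.02). Of 14 antagonist genes, most of them for secreted proteins, DKK1 and DKK2 had a peak in CHIR+SB, with 17 and 15 reads. DKK1 had one in CHIR, with 23 reads. No antagonist gene had a peak in RPMI. The shares of all protein-coding genes are those given for the receptors, 6.26%, 3.80% and 1.14%. DKK1 encodes an inhibitor that binds the LRP co-receptors. Its peaks lay at separate places, 39.0 kb from the TSS in CHIR+SB and 64.2 kb in CHIR.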

How the data were processed

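The submitters' processing notes name Bowtie as a tool, and hg19 and mm9 as builds. Its version, the peak caller and the calling thresholds were not given in the sources used here. Each β-catenin library has 1 peak list deposited by the authors. Per the file headers, it gives the counts of β-catenin and IgG reads within each peak, their normalized signal, the gene assigned with its RefSeq accession, the position relative to that gene and the distances to its TSS and its end. The normalized signal is the count times 1 factor per library, and coordinates are printed as the deposited lists give them. The deposited ratio of normalized signals was also read, and the remaining columns were not used. IgG libraries were used only through the counts in these peaks.

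The 7 genes and the other gene lists were chosen with earlier results of these data known. All 7 genes are named with every peak, and all genes with a peak in the 4 other lists are named. Peaks overlapped when they shared at least 1 bp. Ratios were taken at one-to-one overlaps, with exact conditional binomial intervals, and single counts have exact Poisson intervals, both for counting error only. The calculations, tested on simulated data, used Python 3.11.15 and SciPy 1.17.1. RefSeq tables gave names, gene order and promoter sequence. Doses are left out, since the unit printed in the labels is doubtful. The 300 kb search around the genes was chosen after the data were seen.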

Additional observations from a re-analysis of the deposited data

How the results depend on the processing

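The number of the 7 genes with a peak in CHIR+SB was 5 at any distance, and 2 within 10 kb of the TSS or among the 260 highest peaks. In CHIR it was 4 at any distance and 3 in either of those settings, counts too small to rank CHIR and CHIR+SB. Shares of all genes were not computed for these settings. The number in RPMI, 1 at any distance, was 0 within 10 kb. Within 50 kb, above a common signal minimum of 9.61 or above each list's median, the counts stayed within 1.5 times those at any distance in each list, as did all counts in CHIR. A reciprocal overlap of 50% left 5 shared peaks in each of CHIR+SB and CHIR, without WNT3A. The ratio of CHIR+SB to RPMI at WNT8A, 1.56, was 0.993 as signal over IgG. As signal over IgG the CHIR+SB to CHIR ratio was 0.179 at WNT8A (11.5 kb) and 0.394 at WNT3, and the CHIR to RPMI ratio at WNT8A was 5.55 (2.37 in raw reads). The cause was not tested. Scaling by peak width, subtracting IgG or setting the median ratio to 1 left all 7 ratios within their intervals, which are wide, but moved some across 1.5-fold. The CHIR+SB to RPMI ratio at WNT8A fell below it per width (1.05) and with the median set to 1 (1.43). The CHIR to RPMI ratio there, 1.42, passed it after subtracting IgG (1.64). The ratio at WLS (44.1 kb), 1.80, fell below it per width (1.20) and in raw reads (1.23). In raw reads the CHIR+SB to CHIR ratio passed 1.5-fold lower at WNT3 (0.600) and WNT8A at 8.40 kb (0.625), and as signal over IgG WLS at 59.4 kb reached 1.57. No paired analysis was possible because each condition had 1 library. The counts of 15 to 64 reads per peak limit each ratio to the intervals given.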
